A study of Mus musculus with 24 samples.

Results

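The 7 lens junction genes described here, of 24415 genes in the count table, were followed across all 24 libraries of the study: the connexin genes Gja1, Gja3 and Gje1, the fiber membrane gene Lim2, the cadherin genes Cdh1 and Cdh2, and Tjp1, which encodes the scaffold protein ZO-1. They were taken as the rows whose Entrez identifiers map to these symbols, and each symbol matched 1 row. RNA was sequenced from C57BL/6 mouse lenses in 6 groups of 4 libraries, combining 2 tissues, cortical fiber cells and lens epithelia, with 3 conditions. These were LEGSKO mice given buthionine sulfoximine (LEGSKO+BSO), which the series calls severely glutathione deficient, LEGSKO mice with no treatment, called mildly deficient, and untreated wild-type (WT) mice. LEGSKO mice are known to lack the gene Gclc in the lens; it encodes the catalytic part of the first enzyme of glutathione synthesis, the enzyme that BSO inhibits. No WT group received BSO, so the drug without the knockout was not examined. The labels name no Cre driver, age, sex or batch, and nothing ties a library to an animal, so the p-values measure the spread between these libraries, which may be technical.

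The lens has no blood vessels, and its cells share ions, metabolites and glutathione through gap junctions, channels made of connexins. Gja1 (Cx43) is the classical connexin of the lens epithelium, Gja3 (Cx46) is a connexin of the fibers, and Gje1 (Cx23) is a fiber connexin that the mouse lens needs for normal fiber development. Lim2 (MP20) is an abundant membrane protein of fiber junctions, Cdh1 (E-cadherin) holds epithelial cells together, Cdh2 (N-cadherin) joins fibers as well as epithelial cells, and Tjp1 links junction proteins to the actin skeleton.

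Lim2 and Gja1 differed most between the tissues, in opposite directions, and for that reason the 250 bases upstream of their transcription starts are given here (RefSeq, GRCm38.p6, 5′ to 3′ on the gene's strand). Capitals mark matches to motifs searched on both strands. Lim2 has 1 match, TCAGCA at positions -139 to -134 from the start, which is the reverse complement of the Maf half-site TGCTGA. Gja1 has the same 6 letters at -157 to -152 and an AP-1 match, TGAGTCA, at -19 to -13. The Lim2 window is chr7:43429849-43430098, plus strand, and the Gja1 window is chr10:56377050-56377299, plus strand.
Lim2: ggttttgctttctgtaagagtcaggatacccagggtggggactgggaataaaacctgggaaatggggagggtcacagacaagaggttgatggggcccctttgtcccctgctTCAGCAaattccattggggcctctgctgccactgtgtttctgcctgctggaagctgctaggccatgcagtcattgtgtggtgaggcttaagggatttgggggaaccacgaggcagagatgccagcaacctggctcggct
Gja1: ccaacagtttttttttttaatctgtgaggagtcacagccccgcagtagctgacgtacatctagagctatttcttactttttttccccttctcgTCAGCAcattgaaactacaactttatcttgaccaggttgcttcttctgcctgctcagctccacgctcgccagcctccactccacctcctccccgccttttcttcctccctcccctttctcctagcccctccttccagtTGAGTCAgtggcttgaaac
The Maf half-site occurred in 16.1% of 32851 promoter windows of this length and the AP-1 motif TGANTCA in 6.75%, and the 2 motifs do not overlap in the Gja1 window. The windows of Gja3 (2 starts) and Tjp1 were searched as well: one Gja3 start had 1 TATA box (TATAAA, 12.4% of windows), the other had 0 of the 7 motifs, and Tjp1 had 2 GC boxes (GGGCGG, 32.7% of windows). A letter match describes the sequence and is not a measured binding site.

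Library depth ran from 19340282 to 46569611 counts, and the 4 LEGSKO+BSO fiber libraries, with at least 39034309 counts, were deeper than all others. Crystallin genes, which encode the main soluble proteins of the lens, took 28.5% to 31.3% of counts in LEGSKO+BSO fibers, 29.6% to 34.3% in LEGSKO fibers and 27.6% to 50.1% in WT fibers, where library 1 stood apart at 50.1%. The summed level of 10 lens fiber markers followed the tissue labels, at 67104 to 134864 CPM (counts scaled to a library size of 1 M) across fiber libraries and 8183 to 13514 CPM across epithelial libraries, and WT fiber library 1 was the highest on this scale. Of 10 lens epithelium markers, Foxe3 was at 1.22 to 13.9 CPM in fibers and 188 to 538 CPM in epithelia, whereas Sfrp1 was higher in fibers (1469.7 to 1856 CPM) than in epithelia (805 to 1324 CPM). Of the same list, Sfrp2 and Krt18 were at or near 0 in epithelia.

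The 7 genes formed a steep order of levels, which differed between the tissues. Levels between genes were compared as CPM per kb of exon on a scale common to all 24 libraries. In fibers of every condition the order was Lim2, Gja3, Cdh2, Tjp1, Gje1, Cdh1 and Gja1. Lim2 averaged 6684 ± 577 CPM per kb in LEGSKO+BSO fibers, 6994 ± 820.2 in LEGSKO fibers and 7130.1 ± 1662 in WT fibers, and Gja3 averaged 604 ± 29.0, 566 ± 15.6 and 560.1 ± 33.3 CPM per kb in the same 3 groups (SD, n = 4 each). Gja1 was at the foot of the order, at 2.44 ± 2.94, 2.18 ± 1.85 and 3.13 ± 2.13 CPM per kb. All neighbours in the fiber order were separate, except that Cdh1 and Gja1 overlapped in LEGSKO+BSO and WT fibers.

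In epithelia Gja1, Lim2 and Gja3 stood at the top together. Gja1 averaged 192 ± 21.5 CPM per kb in LEGSKO+BSO, 258 ± 18.2 in LEGSKO and 219 ± 13.3 in WT epithelia, and Lim2 averaged 182 ± 49.0, 148 ± 44.5 and 227 ± 28.9 CPM per kb in the same groups. The ranges of Gja1 and Lim2 overlapped in LEGSKO+BSO and WT epithelia, and those of Gja3 and Lim2 overlapped in LEGSKO+BSO and LEGSKO epithelia. Cdh1, Cdh2, Tjp1 and Gje1 followed in that order in every condition, with Cdh1 and Cdh2 overlapping in LEGSKO+BSO and WT epithelia. Gje1 was lowest, at 4.02 to 4.48 CPM per kb as group means.

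**Figure D1:**
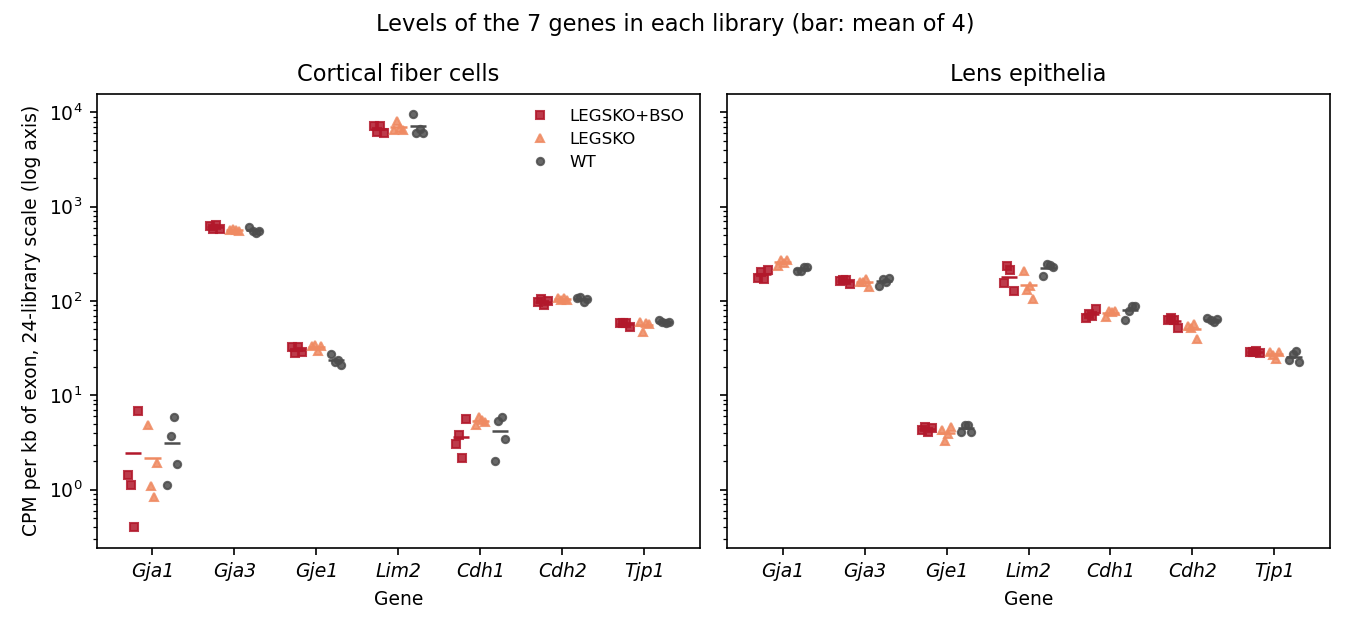
Level of each gene in every library, in CPM per kb of exon on the 24-library scale (log axis), for cortical fiber cells on the left and lens epithelia on the right; squares are LEGSKO+BSO, triangles LEGSKO, circles WT and short bars the mean of 4 libraries. Lim2 lies near 6684 to 7130.1 CPM per kb in fibers as group means, while Gja1 and Cdh1 are the lowest genes there and Gje1 is the lowest in epithelia.

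The difference between the tissues was tested in 1 fit of all 24 libraries. The submitters compared each tissue only with itself, so this comparison is an addition to their design, and in whole tissue a different mix of cells and a different amount of RNA per cell cannot be told apart. Within each condition, 7 of 7 genes were called, against a background of 78.9% of all genes tested in LEGSKO+BSO, 75.8% in LEGSKO and 76.4% in WT lenses, so the count itself says little. The sizes differ widely. Relative to epithelia, Lim2 was 36.8-fold higher in LEGSKO+BSO fibers (log2 5.20 ± 0.23 SE), 47.4-fold higher in LEGSKO fibers (5.57 ± 0.23) and 31.5-fold higher in WT fibers (4.98 ± 0.22; adjusted p = 4.08e-16 in WT). Gje1 was higher by a log2 of 2.81 in LEGSKO+BSO fibers, 3.01 in LEGSKO fibers and 2.40 in WT fibers, and Gja3 was 3.72-fold, 3.57-fold and 3.45-fold higher. The epithelial genes ran the other way: Gja1 was 79.1-fold, 117-fold and 68.6-fold lower in fibers of the same 3 conditions, and Cdh1 was 19.9-fold, 14.1-fold and 18.8-fold lower. In all 5 genes the libraries of the tissues were separate in every condition. The share of all genes that were separate was not computed, so this says little about these 5 genes in particular.

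The direction for Cdh2 and Tjp1 depended on the scale. With the composition scaling used throughout (TMM), Cdh2 was 1.62-fold, 2.07-fold and 1.68-fold higher in LEGSKO+BSO, LEGSKO and WT fibers, and Tjp1 was 2.00-fold, 2.05-fold and 2.34-fold higher. Scaled to library totals alone, the median of all genes moved to a log2 of -1.15, -1.18 and -1.25 in these 3 comparisons, whereas under TMM it lay between -0.09 and -0.08. On that scale Cdh2 turned to a log2 of -0.37 in LEGSKO+BSO fibers (adjusted p = 0.0143), -0.053 in LEGSKO fibers (adjusted p = 0.713) and -0.42 in WT fibers (adjusted p = 0.00534). Tjp1 was then at -0.067, -0.062 and 0.057, with adjusted p of 0.625, 0.648 and 0.678. For example, Cdh2 had 324 to 369 CPM of the unscaled library total in LEGSKO+BSO fibers and 391 to 482 CPM in LEGSKO+BSO epithelia. The other 5 genes kept their direction and their call on both scales, but the fibers lost height against the epithelia in all of them, so their folds hold for TMM only. On library totals Gja3 averaged 1202 CPM in LEGSKO+BSO fibers, against 675 CPM in LEGSKO+BSO epithelia, and 998 CPM in WT fibers, against 654 CPM in WT epithelia. Gje1 averaged 32.6 CPM in LEGSKO+BSO fibers, against 9.71 CPM in LEGSKO+BSO epithelia, and 22.5 CPM in WT fibers, against 9.65 CPM in WT epithelia.

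Between conditions few genes were called, among the members as among all genes. In the comparisons of 2 conditions within a tissue, 0.0298% to 5.52% of all genes tested were called. A count over the members alone therefore says little. Each tissue was fitted separately, and of the 42 comparisons of a gene between 2 conditions within a tissue, 3 passed the threshold: Gje1 was higher in LEGSKO and in LEGSKO+BSO fibers than in WT fibers, and Gja1 was lower in LEGSKO+BSO than in LEGSKO epithelia. Each of these is close to the threshold and depends on settings given beside it.

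**Figure D2:**
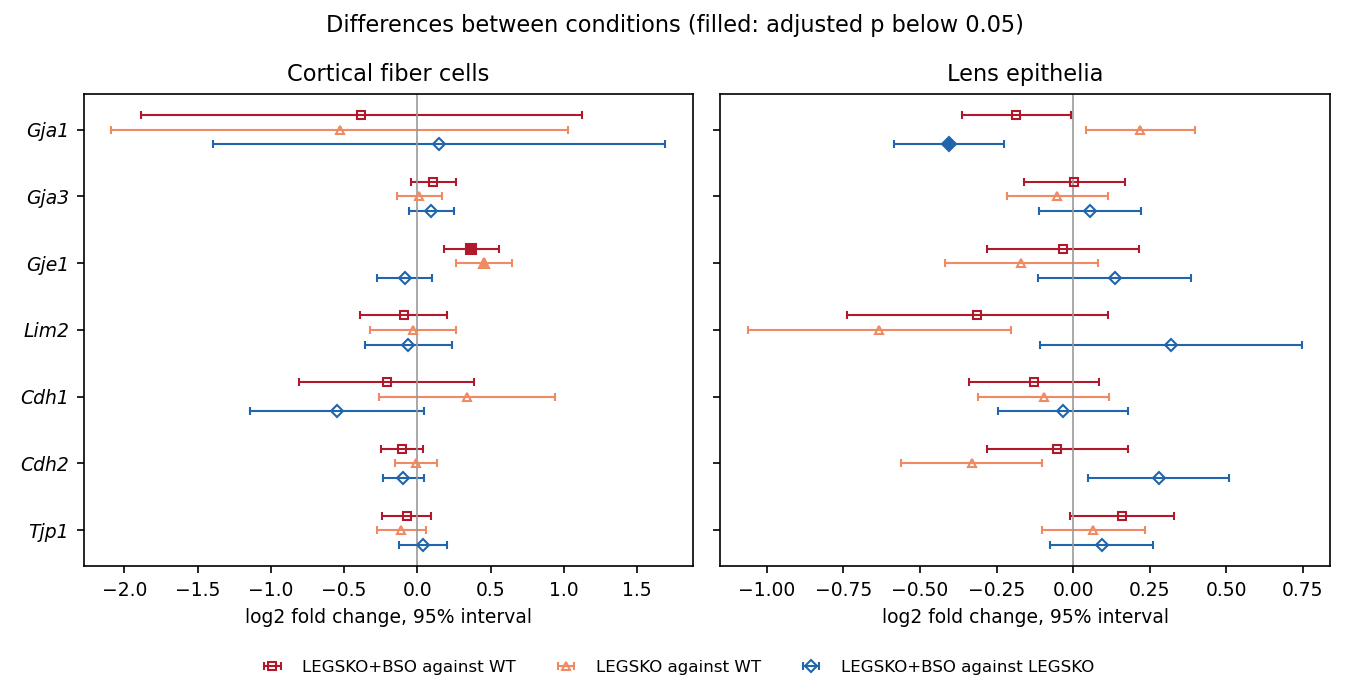
Fitted log2 fold change of each gene with its 95% interval in cortical fiber cells (left) and lens epithelia (right), for LEGSKO+BSO against WT (squares), LEGSKO against WT (triangles) and LEGSKO+BSO against LEGSKO (diamonds); filled symbols have an adjusted p below 0.05. Gje1 in fibers, at 0.37 and 0.46 against WT, and Gja1 in LEGSKO+BSO against LEGSKO epithelia, at -0.40, are the filled ones, and the intervals of Gja1 in fibers are the widest.

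Gje1 (Entrez 76743, GRCm38 chromosome 10, 14715626 to 14718214, minus strand) rose in fibers of both glutathione-deficient groups. Libraries 1 to 4 held 33.0, 28.2, 32.9 and 29.0 CPM in LEGSKO+BSO fibers, 33.2, 34.3, 29.6 and 33.6 in LEGSKO fibers, and 27.9, 22.7, 23.8 and 21.2 in WT fibers. All 8 LEGSKO+BSO and LEGSKO libraries lay above all 4 WT libraries, although the lowest LEGSKO+BSO library was only just above WT library 1. Against WT fibers Gje1 was 1.29-fold higher in LEGSKO+BSO (log2 0.37 ± 0.09 SE, 95% interval 0.18 to 0.56, adjusted p = 0.0272) and 1.37-fold higher in LEGSKO (log2 0.46 ± 0.09 SE, 95% interval 0.27 to 0.65, adjusted p = 0.0191). It was the 1 member of 7 called in each of these comparisons, where 5.52% of all genes tested were called in LEGSKO+BSO and 1.64% in LEGSKO; the median log2 change over the 7 genes was -0.09 and -0.01, beside -0.01 for all genes in both. LEGSKO+BSO and LEGSKO fibers overlapped in Gje1 and differed by a log2 of -0.09 (95% interval -0.27 to 0.10, adjusted p = 0.764).

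WT fiber library 1, with its high crystallin share, was the highest WT library for Gje1 under TMM and the lowest on library totals, at 18.1 CPM beside 23.1 to 24.7 CPM in the other WT libraries. Without it the rise was 0.45 ± 0.08 in LEGSKO+BSO fibers (adjusted p = 0.00260) and 0.53 ± 0.08 in LEGSKO fibers (adjusted p = 0.00108). DESeq2 called the rise in both groups as well (adjusted p = 0.00493 and 0.000453). The call was lost, with the direction kept, without LEGSKO+BSO fiber library 1 or 3 or WT fiber library 2, 3 or 4 for LEGSKO+BSO, and without LEGSKO fiber library 2 or 4 or WT fiber library 2 or 4 for LEGSKO, where adjusted p reached 0.0813 and 0.0674. It was also lost in fits of only the 2 groups (adjusted p = 0.0572 and 0.0536). On library totals the log2 was 0.54 in LEGSKO+BSO and 0.55 in LEGSKO, with the median of all genes at 0.14 and 0.06, and neither passed (adjusted p = 0.0608 and 0.101). Marker genes moved in the same fibers, by edgeR's quasi-likelihood test. The summed muscle and stroma markers were 591 to 724 CPM in LEGSKO+BSO, 626 to 739 CPM in LEGSKO and 485 to 556 CPM in WT fibers, and the 1 marker of that list that could be tested, Acta2, rose in both groups (log2 0.38, adjusted p = 0.0192 in LEGSKO+BSO, and 0.39, adjusted p = 0.0345 in LEGSKO). From 3 to 6 of the 8 listed genes had 0 counts in a fiber library, and the sum includes Acta2, so it is no separate observation. The lens fiber marker Caprin2 fell in both deficient groups (log2 -0.81 in LEGSKO+BSO and -0.59 in LEGSKO), as 1 of 10 tested. The lens epithelium marker Ccnd1, 1 of 9 tested, rose in LEGSKO+BSO (log2 0.39, adjusted p = 0.0341), and the retina marker Pde6b, 1 of 5 tested, rose in LEGSKO (log2 1.18, adjusted p = 0.0392). Their part in the Gje1 result was not tested.

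In epithelia Gje1 was low and not called in any of the 3 comparisons. The LEGSKO+BSO epithelia averaged 9.58 ± 0.437 CPM, the LEGSKO epithelia 8.71 ± 1.23 CPM and the WT epithelia 9.81 ± 0.856 CPM (SD, n = 4 each), and the 3 groups overlapped. Whether the LEGSKO response differs between the tissues was tested as an interaction: fibers minus epithelia gave a log2 of 0.61 ± 0.14 for LEGSKO against WT (adjusted p = 0.103) and 0.40 ± 0.14 for LEGSKO+BSO against WT (adjusted p = 0.195). In these 2 interaction tests 0.103% and 0.276% of all genes were called and 0 of the 7 members, although at an unadjusted p below 0.05 there were 3 (Gje1, Lim2 and Cdh2) for LEGSKO and 1 (Gje1) for LEGSKO+BSO. DESeq2 called 1 member, Gje1, in the LEGSKO interaction (adjusted p = 0.0203) and 0 in the other, and edgeR called Gje1 there without WT fiber library 1 (adjusted p = 0.0171). The neuromedin receptor gene Nmbr spans Gje1 on the opposite strand; they share 0 exon bases, and Nmbr had 8 to 31 counts in fiber libraries, where Gje1 had 502 to 1471.

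**Figure D3:**
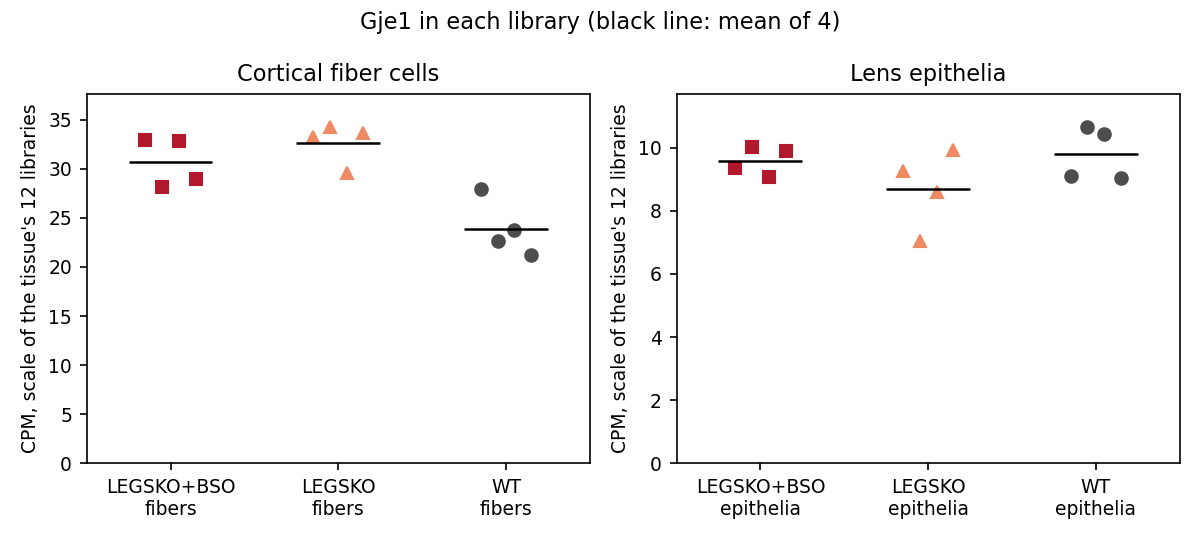
Gje1 CPM in each library of cortical fiber cells (left) and lens epithelia (right), on the scale of the 12 libraries of that tissue; each symbol is 1 library and black lines are means of 4. The LEGSKO+BSO fibers (28.2 to 33.0 CPM) and LEGSKO fibers (29.6 to 34.3 CPM) lie above the WT fibers (21.2 to 27.9 CPM), while the epithelial groups overlap.

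Gja1 (Entrez 14609, chromosome 10, 56377300 to 56390419, plus strand) was the one member called between conditions in epithelia. The 4 LEGSKO+BSO libraries held 884, 1024, 864 and 1069 CPM, the LEGSKO libraries 1153, 1354, 1262 and 1315 CPM, and the WT libraries 1038, 1038, 1145 and 1147 CPM. Every LEGSKO library was above every LEGSKO+BSO and every WT library, and LEGSKO+BSO overlapped WT. Gja1 fell 1.32-fold in LEGSKO+BSO against LEGSKO epithelia (log2 -0.40 ± 0.08 SE, 95% interval -0.58 to -0.23, adjusted p = 0.0428), where 0.722% of all genes tested were called and 1 of the 7 members; the members' median log2 was 0.09, beside 0.00 for all genes. Against WT epithelia the values were -0.19 in LEGSKO+BSO (adjusted p = 0.318) and 0.22 in LEGSKO (adjusted p = 0.243), and neither passed.

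The call depended on the setting. It was kept by DESeq2 (log2 -0.40, adjusted p = 0.000198) and lost without LEGSKO+BSO epithelia library 1, 3 or 4 or without any 1 of the 4 LEGSKO libraries, with adjusted p up to 0.140. It was lost with the replicate number as a block (adjusted p = 0.0568), in a fit of only the 2 groups (0.0521), on library totals (0.0710) and in the fit of all 24 libraries (0.685). In this comparison 1 of 9 tested lens epithelium markers, Foxe3, rose 1.99-fold and 1 of 7 pigmented iris and ciliary body markers, Dct, rose 6.10-fold, while 0 of 10 lens fiber markers and 0 of the 4 tested corneal markers were called. Their part in the Gja1 result was not tested.

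In fibers Gja1 was rare and uneven. The 4 libraries gave 3.31, 2.55, 0.916 and 15.6 CPM in LEGSKO+BSO, 11.2, 2.49, 1.91 and 4.41 CPM in LEGSKO, and 2.56, 8.41, 13.4 and 4.25 CPM in WT fibers. Single libraries of each condition were high and the groups overlapped, so the intervals were wide, from -1.89 to 1.12 on the log2 scale for LEGSKO+BSO against WT. The summed corneal markers were highest in the library with the most Gja1 in every group, at 68.9 CPM in LEGSKO+BSO library 4, 35.3 CPM in LEGSKO library 1 and 30.8 CPM in WT library 3. The same list summed to 845 to 4058 CPM across the epithelial libraries, so in fibers it cannot tell corneal from lens epithelial material. The summed lens epithelium markers were 2152 to 2188 CPM in LEGSKO+BSO, 1939.6 to 2158 CPM in LEGSKO and 2049 to 2276 CPM in WT fibers. In the libraries with the most Gja1 this sum was at the bottom of the range in LEGSKO+BSO and WT fibers and at the top in LEGSKO fibers. Most of that sum was Sfrp1, which was higher in fibers than in epithelia. The sum therefore cannot show how the markers higher in epithelia moved. Sfrp1 was lowest of its group in LEGSKO+BSO library 4 and WT library 3 (1637 and 1611 CPM). Foxe3 and Pdgfra were highest of their group in these libraries, at 13.9 and 7.99 CPM in LEGSKO+BSO library 4 and 6.41 and 9.86 CPM in WT library 3, but in LEGSKO fibers both were highest in library 4, not in library 1. Slc38a3 was highest in the library with the most Gja1 in every group (3.59 CPM in LEGSKO+BSO, 3.17 CPM in LEGSKO and 2.70 CPM in WT). Npnt was highest there in LEGSKO+BSO and LEGSKO fibers (26.2 and 22.3 CPM). Ccnd1 and Ccnd2 were so in LEGSKO+BSO fibers only (93.3 and 23.2 CPM), and Wls in LEGSKO fibers only (373 CPM). In WT fibers Npnt, Ccnd1 and Ccnd2 were highest in library 1. In LEGSKO+BSO library 3, where Gja1 was lowest, Pdgfra was 0.424 CPM and Foxe3 4.78 CPM, above library 2 at 4.45 CPM. Cdh1 was highest of its group in LEGSKO+BSO library 4 and WT library 3 and lowest of its group in LEGSKO library 1. The part of corneal and epithelial cells in the fiber values of Gja1 and Cdh1 was not tested.

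**Figure D4:**
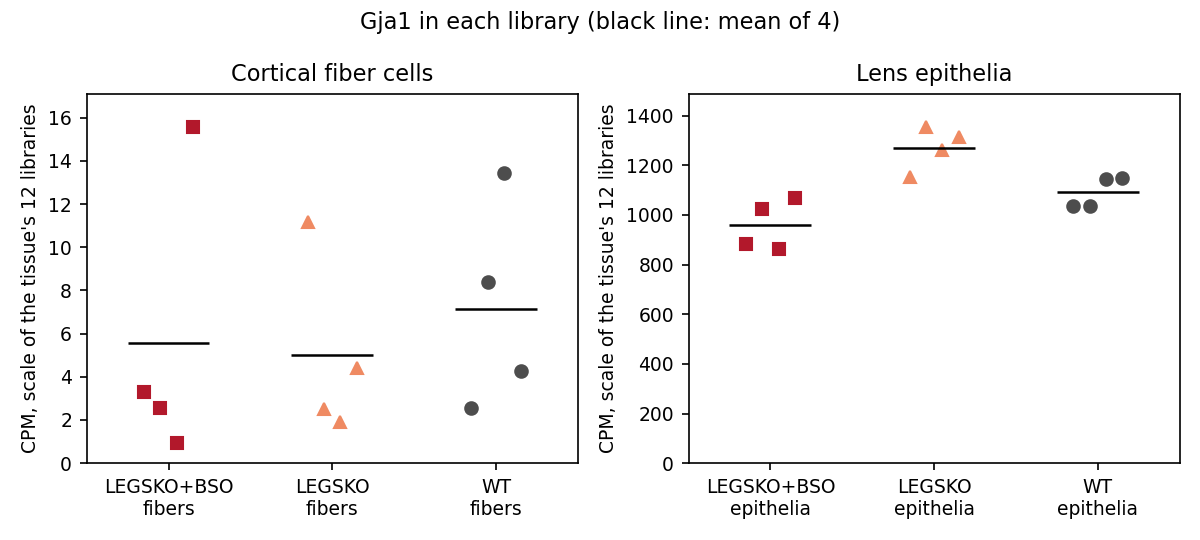
Gja1 CPM in each library of cortical fiber cells (left) and lens epithelia (right), on the scale of the 12 libraries of that tissue, with a separate linear axis for each tissue; each symbol is 1 library and black lines are means of 4. In epithelia the LEGSKO libraries (1153 to 1354 CPM) lie above the LEGSKO+BSO (864 to 1069 CPM) and WT libraries (1038 to 1147 CPM), and in fibers the values run from 0.916 to 15.6 CPM.

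**Figure D5:**
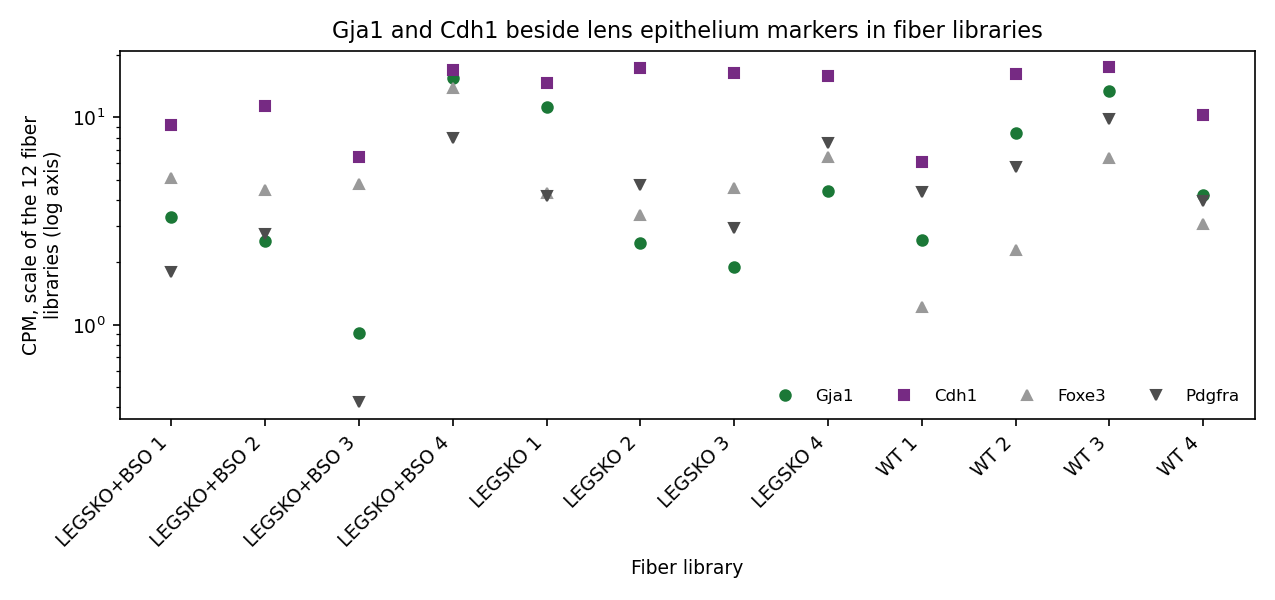
Gja1 (circles) and Cdh1 (squares) in the 12 fiber libraries beside the lens epithelium markers Foxe3 (upward triangles) and Pdgfra (downward triangles), in CPM on a log axis, with LEGSKO+BSO libraries on the left, LEGSKO in the middle and WT on the right. LEGSKO+BSO library 4 is the highest for Gja1 (15.6 CPM) and Foxe3 (13.9 CPM), and LEGSKO+BSO library 3 is the lowest for Gja1 (0.916 CPM) and Pdgfra (0.424 CPM).

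Gja3 (Entrez 14611, chromosome 14, 57034460 to 57058030, minus strand), whose protein forms much of the gap junction coupling between fibers, was called in no comparison of conditions. Fiber libraries held 1165, 1083, 1197 and 1087 CPM in LEGSKO+BSO, 1067, 1089, 1061 and 1026 CPM in LEGSKO, and 1143, 1029.5, 992 and 1040.2 CPM in WT. The groups overlapped, and the difference from WT was 0.11 (95% interval -0.04 to 0.26, adjusted p = 0.412) in LEGSKO+BSO and 0.01 (-0.14 to 0.17, adjusted p = 0.956) in LEGSKO fibers. In epithelia the group means were 666 ± 34.3, 641 ± 52.6 and 664 ± 50.3 CPM in LEGSKO+BSO, LEGSKO and WT (SD, n = 4 each), and the smallest adjusted p of the 3 comparisons was 0.730.

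Lim2 (Entrez 233187, chromosome 7, 43430099 to 43435996, plus strand) was called in no comparison of conditions. Its fiber CPM was 4281, 3748, 4351 and 3661 in LEGSKO+BSO, 3873, 4870.4, 4121 and 3886 in LEGSKO, and 5758, 3681, 4018 and 3650.1 in WT. Under TMM, WT library 1 was the highest of the 12, but on library totals it was the lowest, at 3742 CPM, and the groups overlapped. The log2 difference from WT was -0.09 in LEGSKO+BSO (adjusted p = 0.744) and -0.03 in LEGSKO fibers (adjusted p = 0.946), and without WT library 1 it was 0.08 and 0.14 (adjusted p = 0.651 and 0.438), so that the sign turned.

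In epithelia Lim2 had 204, 305, 279 and 166 CPM in LEGSKO+BSO, 270.3, 170.5, 189 and 134 CPM in LEGSKO, and 243, 323, 314 and 305 CPM in WT. The LEGSKO values were mostly low, with library 1 inside the WT range. LEGSKO against WT gave a log2 of -0.63 ± 0.20 (95% interval -1.06 to -0.20, adjusted p = 0.155), and without LEGSKO library 1 it was -0.85 and passed (adjusted p = 0.0413). The summed lens fiber markers in the same libraries were 13096, 9174, 8765 and 10355 CPM in LEGSKO and 13514, 12352, 12230 and 10107 CPM in WT epithelia, so LEGSKO library 1 was also the highest LEGSKO library for these markers. Their median log2 in LEGSKO against WT was -0.51, beside -0.01 for all genes, and 1 of 10 was called lower. Of the other lists, 1 of 9 lens epithelium markers fell. Risers were 2 of 4 corneal, 1 of 7 pigmented iris and ciliary body and 1 of 4 muscle and stroma markers. The part of these markers in the Lim2 and Cdh2 values was not tested. LEGSKO+BSO against WT gave -0.31 (adjusted p = 0.496).

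Cdh2 (Entrez 12558, chromosome 18) also stood lower in LEGSKO epithelia without passing the test. The antisense gene Gm15485 lies on its opposite strand, and without a stated strand setting their reads cannot be told apart. Cdh2 had 463, 482, 471 and 375 CPM in LEGSKO+BSO, 392, 376, 421 and 286 CPM in LEGSKO, and 489, 459, 432 and 475 CPM in WT epithelia. All LEGSKO libraries were below all WT libraries, and LEGSKO+BSO overlapped both. The log2 difference was -0.33 ± 0.11 for LEGSKO against WT (95% interval -0.56 to -0.10, adjusted p = 0.168) and 0.28 ± 0.11 for LEGSKO+BSO against LEGSKO (adjusted p = 0.184). DESeq2 called the LEGSKO decrease (log2 -0.33, adjusted p = 0.0481) and edgeR did not. In LEGSKO against WT epithelia edgeR called 0 of the 7 members and 0.842% of all genes, with 3 members (Gja1, Lim2 and Cdh2) at an unadjusted p below 0.05 and 1, Cdh2, called by DESeq2. In LEGSKO+BSO against WT epithelia it called 0 of 7 and 1.17% of all genes, with 1 member (Gja1) at an unadjusted p below 0.05 and 0 called by DESeq2.

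In fibers Cdh2 was even, at 332 ± 18.8 CPM in LEGSKO+BSO, 354 ± 13.5 CPM in LEGSKO and 357 ± 19.3 CPM in WT (SD, n = 4 each). The difference from WT was -0.10 (95% interval -0.25 to 0.04, adjusted p = 0.398) in LEGSKO+BSO fibers and turned to 0.046 on library totals; it was -0.01 (-0.15 to 0.13) in LEGSKO fibers. Between LEGSKO+BSO and LEGSKO fibers edgeR called 0.0298% of the genes tested and 0 of the 7 members, with 0 members at an unadjusted p below 0.05 and 0 called by DESeq2. An interval such as -0.24 to 0.05 for Cdh2 in that comparison bounds the difference and does not show equality.

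Cdh1 (Entrez 12550, chromosome 8, 106603350 to 106670247, plus strand) was called in no comparison of conditions. Its epithelial means were 477 ± 46.1 CPM in LEGSKO+BSO, 488 ± 31.4 CPM in LEGSKO and 521 ± 73.6 CPM in WT (SD, n = 4 each), with log2 differences from WT of -0.13 and -0.10 (adjusted p = 0.588 and 0.712). Fiber libraries gave 9.18, 11.4, 6.46 and 17.0 CPM in LEGSKO+BSO, 14.7, 17.4, 16.4 and 15.8 CPM in LEGSKO, and 6.12, 16.3, 17.4 and 10.3 CPM in WT. Of the LEGSKO+BSO libraries 3 of 4 lay below the LEGSKO range, as did 2 of 4 WT libraries, and the groups overlapped.

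Tjp1 (Entrez 21872, chromosome 7, 65296165 to 65527850, minus strand) was called in no comparison of conditions. Epithelial libraries held 301, 300.2, 312 and 294 CPM in LEGSKO+BSO, 296, 281, 256 and 298 CPM in LEGSKO, and 253, 285, 305 and 238 CPM in WT. The groups overlapped, with a log2 of 0.16 (95% interval -0.01 to 0.33, adjusted p = 0.369) for LEGSKO+BSO against WT. In fibers the 4 LEGSKO+BSO libraries (258.6 to 283.1 CPM) lay just below the 4 WT libraries (283.4 to 300.7 CPM), yet the difference of -0.07 was small and not called (adjusted p = 0.639). LEGSKO fibers had 223 to 289 CPM. The Tjp1 gene overlaps 3 other annotations, 1 of them a processed pseudogene. Whether they share exon bases with it was not computed, so some of their reads may be counted with Tjp1.

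Other junction genes were counted by list. In LEGSKO+BSO fibers against WT, 1 of the 18 tested genes of the cadherin and catenin list, which includes nectins, rose and 2 fell, 1 of 19 tight junction genes fell, and 0 of 3 connexins, 1 pannexin and 8 desmosome genes were called, beside 5.52% of all genes; the median log2 of the cadherin and catenin list was -0.01, as for all genes. Ctnnd2, a neural catenin that binds cadherin tails, had 54.3, 57.2, 57.2 and 52.9 CPM in LEGSKO+BSO fibers and 43.9, 38.6, 46.7 and 44.2 CPM in WT fibers (log2 0.35 ± 0.07, adjusted p = 0.0152). The groups were separate. Magi3, a tight junction scaffold, fell 1.39-fold (113, 84.0, 111 and 90.8 CPM in LEGSKO+BSO fibers, against 149, 129, 144 and 131 CPM in WT fibers, adjusted p = 0.0179), and the adhesion gene Nectin4 fell 1.46-fold (3.06 to 3.68 CPM in LEGSKO+BSO fibers, against 4.42 to 5.51 CPM in WT fibers, adjusted p = 0.0212). All 3 calls were lost on library totals (adjusted p = 0.114, 0.403 and 0.401); the Magi3 call was also lost without LEGSKO+BSO fiber library 4, and the Nectin4 call in 5 of 8 fits that left out 1 library.

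In LEGSKO against WT fibers 1 of the 18 tested cadherin and catenin genes was called, beside 1.64% of all genes. Of 19 tight junction genes, 3 connexins, 1 pannexin and 8 desmosome genes, 0 were called. The called gene was Cdh4, which encodes R-cadherin. It had 22.4, 22.1, 18.7 and 22.8 CPM in LEGSKO fibers and 32.7, 30.1, 25.04 and 26.8 CPM in WT fibers, with no overlap, and fell 1.33-fold (log2 -0.41 ± 0.09, adjusted p = 0.0404). The call held in 2 of 8 fits that left out 1 library, and it was lost with the replicate number as a block (adjusted p = 0.0743), in the fit of only the 2 groups (0.0943) and on library totals (0.731). In LEGSKO+BSO fibers Cdh4 was 20.8 to 24.98 CPM and was called there too (log2 -0.34 ± 0.09, adjusted p = 0.0429).

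In epithelia 2 of the 27 tested tight junction genes rose in LEGSKO+BSO against WT, and 0 of 7 connexins, 2 pannexins, 19 cadherin and catenin genes and 8 desmosome genes were called, beside 1.17% of all genes. Jam2, a junctional adhesion molecule, had 281, 271, 291 and 320.1 CPM in LEGSKO+BSO and 156, 193, 219 and 207 CPM in WT epithelia, and the LEGSKO epithelia, at 207 to 252 CPM, overlapped WT. It rose in LEGSKO+BSO against WT (log2 0.59 ± 0.10, adjusted p = 0.0110), and the call was kept in all 8 fits that left out 1 library and lost in the fit of all 24 libraries (adjusted p = 0.384). Cldn12, a claudin, rose 1.31-fold (169 to 196 CPM in LEGSKO+BSO, against 119 to 151 CPM in WT epithelia, adjusted p = 0.0354; called in 4 of 8 fits that left out 1 library, and lost in the fit of only the 2 groups, adjusted p = 0.0931). In the same comparison 3 of the 4 tested corneal markers rose, Krt15, Krt19 and Aldh3a1, at 2.20-fold, 1.48-fold and 2.08-fold, while Krt12 was at most 0.793 CPM in any library. Of 9 tested lens epithelium markers 1 rose and 1 fell, and 1 of 4 muscle and stroma markers rose. The part of corneal cells and of the other markers in the Jam2 and Cldn12 results was not tested.

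Between the tissues the lists split, in part by the scale. In WT lenses, under TMM, 22 of 28 tight junction genes were lower in fibers than in epithelia and 4 higher (median log2 -1.61, beside -0.09 for all genes), 6 of 8 connexins outside the members were lower and 1 higher, and 5 of 8 desmosome genes were higher and 2 lower (median log2 1.03). Cadherin and catenin genes were mixed, with 10 of 19 higher and 8 lower (median log2 0.15). Of all 15560 genes tested, 76.4% were called, 5761 higher and 6131 lower, so a count of calls alone says little about a list. On library totals the median of all genes moved to a log2 of -1.25, and 13444 of all genes were called. There 24 tight junction genes were lower and 3 higher, and 7 connexins were lower and 1 higher. Of the desmosome genes 3 were lower and 1 higher (median log2 -0.15), and 16 cadherin and catenin genes were lower and 3 higher (median log2 -1.04). The calls of these last lists thus turned with the scale, but their medians stayed above that of all genes on both scales. The 3 listed genes with the smallest adjusted p in each condition were Vcl (vinculin, which anchors actin at junctions), Cgn (cingulin, a tight junction linker) and Arvcf (a catenin). In WT fibers against WT epithelia Vcl was 5.52-fold lower, Cgn 13.4-fold lower and Arvcf 5.12-fold higher (adjusted p = 8.16e-18, 2.80e-17 and 5.52e-17), and on library totals they kept these directions, at a log2 of -3.62, -4.91 and 1.21.

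For each member, the 2 genes with the most similar pattern over the libraries were found among 10163 genes, by the lower of the Pearson correlations of log2 CPM in the 12 fiber and the 12 epithelial libraries. The r values, fibers first, were 0.84 and 0.82 for Gja1 with Hif1a, 0.73 and 0.76 for Gja3 with Stk40, 0.82 and 0.72 for Gje1 with Dtna, and 0.84 and 0.81 for Lim2 with Clic5. For Cdh1 they were 0.79 and 0.78 with Hbegf, for Cdh2 0.86 and 0.91 with Pmp22, and for Tjp1 0.90 and 0.87 with Lmbrd2. The next most similar genes were Heph, Coq2, Upp1, Lctl, Zc3h6, Stab1 and Akap13, in the order of the members. Lctl, next for Lim2, is on the lens fiber marker list. These are the highest of many correlations, and the libraries share depth, tissue and condition, so they describe the table only.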

How the data were processed

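RNA from 24 mouse lens libraries was analysed from 1 table of raw counts per Entrez gene, deposited by the authors. The tools named in the submitters' processing notes, in no stated role or order, are TopHat, DESeq, bcl2fastq and CASAVA 1.8, with build mm10 (GRCm38). How reads were counted, with which annotation and strand setting, is not given in the sources used here, so reads of overlapping genes cannot be told apart. Columns were matched to samples through the labels, groups and replicate numbers come from the titles, and 24334 of 24415 identifiers matched a RefSeq symbol. No 2 libraries of a group were duplicates (lowest chi-square 5.43 per degree of freedom).

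The tests used edgeR 4.0.16 (R 4.3.3) with TMM scaling, filterByExpr (minimum count 10, minimum total 15), two-sided quasi-likelihood F tests and Benjamini-Hochberg adjustment over all genes tested, with a threshold of 0.05. All adjusted p-values are edgeR's unless DESeq2 (1.42.0) is named. Each tissue was fitted with its 12 libraries in 3 groups (13436 genes in fibers, 15089 in epithelia), and the tissue comparisons and interactions with all 24 libraries in 6 groups (15560 genes). Standard errors were taken from the F statistic, and 95% intervals from the fit's degrees of freedom. CPM for conditions uses the tissue's 12-library scale. CPM per kb uses the 24-library scale and the union of GENCODE exons, and compares genes as far as the deposited counts cover these exons. edgeR's common coefficient of biological variation came to 12.8% in fibers and 14.2% in epithelia. The procedure was tested on simulated counts.

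All 7 members are described. Of the other junction genes, up to 3 with the smallest adjusted p among those called in a comparison are named; 1 result under this rule is not reported here. The members, gene lists and tests were chosen with earlier results of these data known. Alternatives were median-of-ratios scaling, DESeq2, no filter, no crystallin genes, the replicate number as a block, only the 2 groups compared, all 24 libraries and leaving out each library. Scaling by library totals, and all alternatives for the named other genes, were added after seeing the data. Promoter sequences are RefSeq's, from GRCm38.p6: 4 of the 7 members matched, and Gje1, Cdh1 and Cdh2 did not.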

Additional observations from a re-analysis of the deposited data

Results flagged for a closer look

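Of 42 sets of 4 libraries (7 genes in 6 groups), 4 held a library whose gap to its nearest neighbour took more than 0.829 of the whole range of the set; chance gives this in about 1 in 20 sets. Gja1 in LEGSKO+BSO fiber library 4 was at 15.6 CPM, the next library at 3.31 CPM, and the gap was 0.836 of the range. Tjp1 was low in the same library, at 258.6 CPM beside 279.3 CPM (0.845 of the range), and in LEGSKO fiber library 2, at 223.4 CPM beside 278 CPM (0.831). Cdh1 was low in LEGSKO epithelia library 1, at 441 CPM beside 502 CPM (0.951 of the range). That library also had the highest Lim2 level of the LEGSKO epithelia, 270.3 CPM.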

How the results depend on the processing

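Of 1290 values of the 77 member results under the alternatives, 1255 kept their side of the threshold and, where the difference exceeded its standard error or was called, their direction. On library totals Cdh2 turned to -0.37, -0.053 and -0.42 (LEGSKO+BSO, LEGSKO and WT fibers against epithelia), Tjp1 to -0.067 and -0.062 (LEGSKO+BSO and LEGSKO), and Cdh2 in LEGSKO+BSO against WT fibers to 0.046. The count of members called, 1 each in LEGSKO against WT fibers, LEGSKO+BSO against WT fibers and LEGSKO+BSO against LEGSKO epithelia, became 0 on library totals and with only the 2 groups compared, and 0 in the last with the replicate block and with all 24 libraries. It rose to 1 with DESeq2 in LEGSKO against WT epithelia (Cdh2) and in the LEGSKO interaction (Gje1). Leaving out 1 library gave 0 to 1 members in these 5 comparisons, 7 to 7 in the 3 tissue comparisons and 0 to 0 in the others. Correlations of same-numbered libraries ran from -0.27 to 0.27. Libraries with different numbers were not correlated, so whether the replicate numbers pair the libraries was not settled. Between fibers and epithelia the correlations were 0.035 to 0.124 in LEGSKO+BSO, -0.050 to 0.080 in LEGSKO and 0.016 to 0.194 in WT. The block changed no other member call. Counts over all genes moved more. In LEGSKO against WT fibers the count was 220, with 75 on library totals, 501 with DESeq2, 61 without LEGSKO fiber library 3 and 591 without WT fiber library 1. In LEGSKO+BSO against WT fibers it was 742, with 173, 1138, 285 (without LEGSKO+BSO fiber library 3) and 1075 (without WT fiber library 1). With DESeq2 it was 81 beside 4 in LEGSKO+BSO against LEGSKO fibers, and 447 beside 127, 565 beside 177 and 679 beside 109 in LEGSKO against WT, LEGSKO+BSO against WT and LEGSKO+BSO against LEGSKO epithelia. Without LEGSKO+BSO epithelia library 1 it was 0 in the last, and 442 without library 2. DESeq2 gave no adjusted p for Gja1 in the tissue and interaction tests. The causes were not tested. Rare genes limit precision: the fiber differences of Gja1 have standard errors of 0.71 to 0.73.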
